A study of Mus musculus with 3 samples.

Results

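The genes described here encode subunits of the oxidative phosphorylation system, the respiratory chain and ATP synthase of the inner mitochondrial membrane. They were chosen by symbol alone, as every probe set annotated with exactly 1 symbol of the families Ndufa, Ndufb, Ndufc, Ndufs and Ndufv (with a number and nothing after it), Sdha to Sdhd, Uqcr, Cyc1, Cox4 to Cox8, or Atp5. The rule took 164 probe sets of 81 genes, out of 34958 probe sets of 18194 genes with a single symbol. No measured value entered the choice.

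The cells were NIH3T3, a line of immortalised fibroblasts from mouse embryos, with DMEM and calf serum given as the medium of the control arrays, and 3 single-colour arrays were run with 1 sample each. The series belongs to a screen for hairpin RNAs that make cells more resistant to oxidative stress, and it asks which transcripts differ from control cells. There were 2 arrays of cells with the empty vector, labelled as basal expression and with no treatment, called empty vector 1 and empty vector 2. A single array held cells with a hairpin RNA (shRNA) directed at Retsat, the retinol saturase gene. It is called RetSat shRNA and labelled as highly resistant to t-BHP, the organic peroxide tert-butyl hydroperoxide. Its title carries the number 2, as does that of empty vector 2, the control it lay closer to, and the labels do not say whether the number marks a replicate, a clone or a hairpin. For that array no source used here gives the medium or treatment. The knockdown rests on 1 array, and the control is an empty vector, not a hairpin without a target.

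Oxidative phosphorylation moves electrons from NADH and succinate to oxygen and uses the proton gradient this builds to make ATP. Complex I (NADH dehydrogenase) and complex II (succinate dehydrogenase) pass electrons to coenzyme Q, complex III (the cytochrome bc1 complex) passes them to cytochrome c, complex IV (cytochrome c oxidase) hands them to oxygen, and complex V is the ATP synthase. Complexes I and III are known as sites where electrons can leak to oxygen and form superoxide. All the genes here are nuclear; the mitochondrial genome encodes further core subunits of every complex except complex II.

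Retsat mRNA was low on the RetSat shRNA array. Its brighter probe set read 415.9 and 495.9 intensity units in the controls and 69.5 in RetSat shRNA cells, 15.2% of the empty-vector mean. In limma's moderated test the log2 difference was -2.54 (SE 0.503), with an unadjusted p of 0.000453 and an adjusted p of 1, so even this gene did not pass over all genes. Each gene's own error came from the pair of empty-vector arrays alone (1 residual degree of freedom), and these stood apart. The moderated test drew that error towards a level shared by all genes tested. The SE was thus 0.498 for Atp5g3, whose controls nearly coincided, and 0.601 for Ndufs1, whose controls were 2-fold or more apart. Across the 10844 genes tested the SD of the log2 difference was 0.739 between the empty-vector arrays and 0.336 between RetSat shRNA and empty vector 2. All 10 fibroblast markers listed were bright (811.2 units or more on every array), while the summed signals of endothelial, germ cell and striated muscle markers stayed at or under 208.1. Of the other lists, epithelial markers summed to 228.2 to 280.6 with 3 of 5 genes over the filter, adipocyte markers to 347 to 506, nearly all Fabp4, and blood markers to 159.7 to 184.4, mostly Cd68; their part in the results was not tested.

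Most subunit genes read slightly higher on the RetSat shRNA array than on both empty-vector arrays, and none passed limma. A gene was represented by its brightest probe set and tested when its mean log2 signal reached the median of all probe sets (about 33.3 units); 77 of the 81 genes did. Of these 77, 56 lay above both empty-vector arrays, compared with 34.4% of all genes tested, 10 lay below both, compared with 25.4%, and 11 lay between them. Set against empty vector 1 their median log2 difference was 0.32, and against empty vector 2 it was 0.06, where all genes tested had medians of 0.14 and 0.00. Differences are on the log2(signal + 10.2) scale, which understates the change of dim genes. After quantile normalization 35 of the 77 lay above both arrays and 17 below, beside 36.2% and 21.9% of all genes tested, and the medians came to 0.11 and 0.01. Without empty vector 1, 60 of the 77 lay above the remaining control, beside 5416 of the 10844 genes tested, and 17 lay below it. In bulk RNA, fewer cells expressing a gene and less RNA per cell cannot be told apart.

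In limma 0 of the 77 genes passed an adjusted p of 0.05, where 0% of all genes tested did. At an unadjusted p under 0.05 there was 1, Cox7b2 (unadjusted p = 0.0255, adjusted p = 1 in limma), beside 0.968% of all genes. By a rule of size, 2-fold or more away from each control in the same direction, 0 subunit genes were higher, beside 0.0922% of all genes (10 genes), and 1 was lower, again Cox7b2, beside 0.498% (54 genes). Quantile normalization changed the split of all genes to 25 higher and 43 lower. From empty vector 2 alone, 3 subunit genes (Atp5md, Cox7b2 and Cox6a2) were 2-fold or more away, beside 1.73% of all genes. Of the 10 genes below both arrays, 4 were dim tissue-restricted isoforms of complex IV, which are given with that complex.

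**Figure D1:**
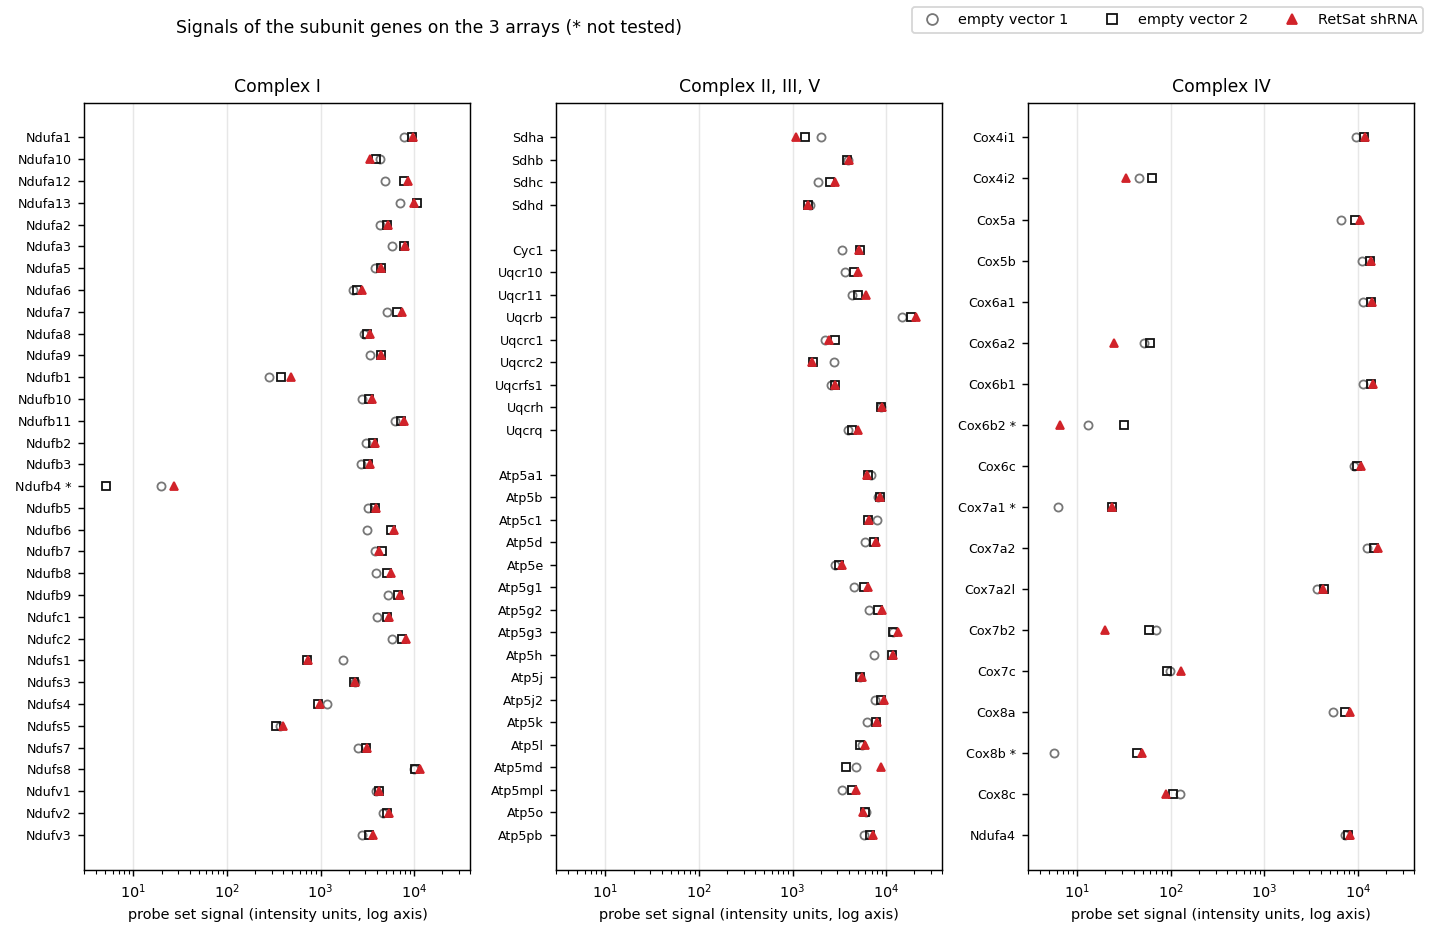
Each row is a subunit gene and the horizontal log axis gives its probe set signal on empty vector 1 (open circle), empty vector 2 (open square) and RetSat shRNA (filled triangle), with untested genes starred. For most genes the circle lies to the left of a close square and triangle; Atp5md has the triangle apart on the right at 8834 units, and Cox7b2 has it apart on the left at 19.7.

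The control arrays differed from each other by more than RetSat shRNA differed from empty vector 2. Over the 77 subunit genes the SD of the log2 difference was 0.313 between the controls, 0.277 between RetSat shRNA and empty vector 2, and widest, 0.429, between RetSat shRNA and empty vector 1. Empty vector 2 exceeded empty vector 1 for 59 of the 77 genes, beside 59.3% of all genes tested, with a median difference of 0.23. The gap between the controls was wider than the gap between RetSat shRNA and empty vector 2 for 59 genes (76.6%), which is near the 75.4% of all genes tested. An order of empty vector 1 lowest, empty vector 2 in the middle and RetSat shRNA highest was seen for 50 of the 77 genes (64.9%), compared with 28% of all genes tested. Among genes with a mean signal at or over the 95th percentile of all probe sets, 74.2% of subunit genes had that order. The share over all 1357 genes that bright was 48.8%. RetSat shRNA lay outside the controls by more than the controls differed for 16 genes (20.8%), compared with 17.9% of all genes, so by this measure the subunit genes were near the background.

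Signal level moved with the same difference. The subunit genes were bright: 66 of the 77 had a mean signal at or over the 95th percentile of all probe sets (1799 units). Among the 1357 genes that bright, 54.4% lay above both empty-vector arrays and 12.3% below both, and empty vector 2 exceeded empty vector 1 for 73.2%. Of the 66 bright subunit genes, 53 lay above both (80.3%), 4 below both, and 56 were higher on empty vector 2 than on empty vector 1. Their medians against the controls, in the same order, were 0.32 and 0.07, beside 0.28 and 0.04 for all genes of that brightness. Within that range the subunit genes were brighter than the rest, with a median of the mean log2 signal of 12.42 against 11.67. In narrower bands, 12 of 17 subunit genes (70.6%) lay above both at a mean log2 signal of 11 to 12, beside 50.6% of all genes. At 12 to 13 it was 27 of 32 (84.4%) beside 57.8%, and at 13 and over 14 of 16 (87.5%) beside 80.2%, so the brightest subunit genes were near their background. The 11 tested subunit genes under the 95th percentile had 3 above both and 6 below both. The part of signal level in the result was not tested beyond these counts.

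**Figure D2:**
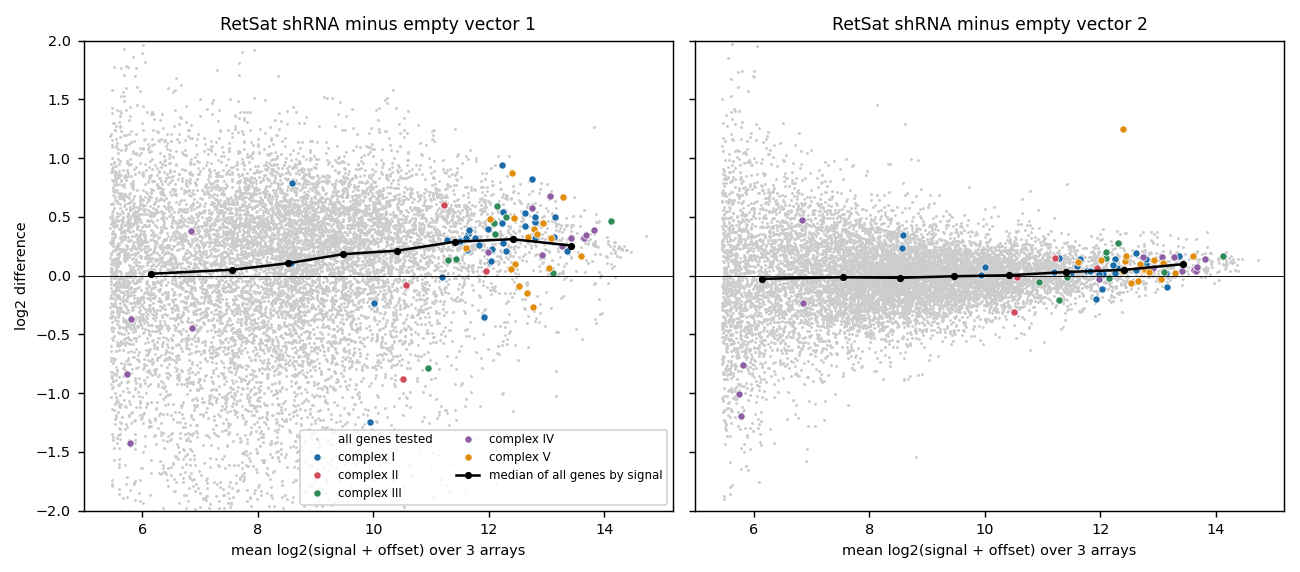
The vertical axis is the log2 difference of RetSat shRNA from empty vector 1 (left) and empty vector 2 (right), and the horizontal axis is the mean log2 signal over the 3 arrays; grey points are all genes tested, coloured points the subunit genes by complex, and the black line the median of all genes in bands of signal. The line climbs from 0.02 in the dimmest band to 0.31 near a signal of 12 on the left, and from -0.03 to 0.10 on the right, and most subunit genes sit at its bright end; 271 and 18 genes lie outside the vertical limits.

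Complex I takes electrons from NADH through a flavin and a chain of iron-sulfur clusters. Of its 33 genes 32 were tested, 26 lay above both empty-vector arrays, 1 below both and 5 between (18, 3 and 11 after quantile normalization), with medians of 0.32 against empty vector 1 and 0.07 against empty vector 2. Ndufb4 was not tested, because its single-symbol probe set read 27.2 units or less.

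The core subunits, which hold the electron path, had lower medians than the accessory ones. Over the 6 tested core genes the medians were 0.16 against empty vector 1 and 0.03 against empty vector 2, and over the 26 tested accessory genes 0.34 and 0.09; the difference between these groups was not tested. Ndufs8, an iron-sulfur subunit, read 9906 and 10230.2 in the controls and 11478 in RetSat shRNA cells, so the controls nearly coincided and the shRNA array was above them. None of its other probe sets lay above both controls, and a further bright probe set read 2383, 2460 and 2281, below both. Ndufv1, which binds NADH and the flavin, read 3935, 4244 and 4257, with the shRNA array level with empty vector 2. Its other bright probe sets read 2892.7, 3112.8 and 2825.5, and 2718.6, 2940.9 and 2697.4, both with the shRNA array below the controls. Ndufs1, the largest iron-sulfur subunit, read 1733 on empty vector 1, 724.8 on empty vector 2 and 726.6 on RetSat shRNA. Its control arrays differed by 1.25 on the log2 scale, the one tested subunit gene whose controls were 2-fold or more apart, beside 12.7% of all genes.

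Accessory subunits surround the core and serve assembly and stability. Ndufb1, in the membrane arm, ranked highest in the complex by the smaller of its differences and read 279.2 and 382.1 in the controls and 489 in RetSat shRNA cells. Ndufa7 read 5144, 6499 and 7433, and Ndufa6, of the LYR family, read 2230, 2481 and 2749. All 3 genes followed the order empty vector 1, empty vector 2, RetSat shRNA, and the shRNA array was outside the controls by 0.35, 0.19 and 0.15 log2. Ndufa12 read 4878, 7730.2 and 8646, a gap of 0.66 between the controls and of 0.16 beyond them. Another bright probe set of Ndufa12 also lay above both controls, while its remaining bright probe set read 4696, 4714 and 4670, just below both. Ndufa10, related to nucleoside kinases, was the 1 gene of complex I below both arrays, at 4348, 3893 and 3395. Its log2 differences were -0.36 and -0.20 (SE 0.5 for the difference from the control mean).

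Complex II oxidises succinate to fumarate and links the chain to the citrate cycle. All 4 genes were tested; 2 lay above both arrays and 2 below. Sdha, the flavoprotein that holds the active site, read 2029.6 and 1363 in the controls and 1097 in RetSat shRNA cells, log2 differences of -0.88 and -0.31, so the shRNA array was below both. Its other probe set over the filter read 1579, 885.7 and 1161, lower than empty vector 1 but higher than empty vector 2, so the 2 probe sets agree only against empty vector 1. Sdhb, the iron-sulfur subunit, read 3916, 3843 and 4030.2, a spread of under 0.1 log2. Of the membrane anchors, Sdhc read 1856, 2536 and 2816 and Sdhd read 1549, 1477 and 1466. The other Sdhd probe set over the filter read 255.6, 271.4 and 353.5, above both controls by 0.45 and 0.37, so the position of Sdhd below both also depends on the probe set. In limma none of the 4 passed (unadjusted p of 0.279 and adjusted p of 1 for Sdha).

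Complex III passes electrons from coenzyme Q to cytochrome c. All 9 genes were tested, with 5 above both arrays, 1 below and 3 between, and the 5 above were the 5 small accessory subunits, of which 4 were above and Uqcrh below after quantile normalization. Uqcr11 read 4275 and 4982 in the controls and 6033 in RetSat shRNA cells. Uqcrq read 3914, 4352 and 4995, and Uqcrb, near the site of coenzyme Q, read 14919, 18403 and 20650. Uqcr10 read 3663, 4519 and 5003. These 4 genes were again lowest on empty vector 1 and highest on RetSat shRNA, and their differences from empty vector 2 ran from 0.15 to 0.28. Uqcrh, the hinge protein, was level at 8806, 8747 and 8947 in its brightest probe set. Its other bright probe set read 6915, 5952 and 7102, above the controls by 0.04 and 0.25 log2, so its level reading depends on the probe set.

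The electron carriers of complex III did not lie outside the controls. Cyc1, cytochrome c1, read 3410, 5223 and 5159, and the Rieske iron-sulfur protein Uqcrfs1 read 2569, 2853 and 2831. Both had RetSat shRNA just under empty vector 2. Of the core proteins, Uqcrc2 read 2786, 1671 and 1608, which is below both arrays with most of the gap (0.73 log2) between the controls. Uqcrc1 read 2221, 2824 and 2440, between them.

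Complex IV reduces oxygen to water, and several of its nuclear subunits exist as a widely expressed form and one restricted to certain tissues. Of its 18 genes here, Ndufa4 included because it is now placed in this complex, 15 were tested, 10 lay above both arrays, 4 below and 1 between. Among the tested genes the split went with the kind of isoform and also with brightness. All 10 widely expressed subunits lay above both arrays, with medians of 0.33 and 0.11. After quantile normalization 5 did, 4 lay between and 1 (Ndufa4) lay below. The median of their mean log2 signal was 13.34. Of all genes at 13 and over 80.2% lay above both arrays, beside 34.4% of all genes tested. All 4 tested restricted isoforms lay below both, after quantile normalization too, with medians of -0.64 and -0.88. Of all genes tested 25.4% lay below both. The restricted isoforms were dim, at 124.4 units or less on every array, and the other 3 were under the filter, so their differences rest on signal near the floor. On RetSat shRNA, Cox7b2, Cox6a2 and Cox4i2 read 19.7, 24.6 and 32.9 units, under the filter level of about 33.3. They passed it only through their higher control signals. Their shared position below both was thus favoured by the filter and is not read as a result.

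In the subunit 4 pair, Cox4i1 read 9484, 11571 and 11877, while Cox4i2, a form known from lung and from hypoxic cells, read 45.4, 63 and 32.9. In the subunit 6a pair, Cox6a1 read 11206, 13590 and 13972, while Cox6a2 of heart and muscle read 52.1 and 59.6 in the controls and 24.6 in RetSat shRNA cells. In the subunit 6b pair, Cox6b1 read 11415, 13758 and 14469, and the testis form Cox6b2 was untested at 13, 31.7 and 6.5. In each pair the bright member stood above both controls by 0.04 to 0.07 log2, and between them after quantile normalization, while the dim one stood below.

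In the subunit 7a group, Cox7a2 read 12476, 14855 and 16365, and the muscle form Cox7a1 was untested at 6.2, 23.3 and 23.5. Cox7a2l, a relative known for joining complexes III and IV into supercomplexes, read 3653, 4286 and 4195, between the controls. In the subunit 8 group, Cox8a read 5435, 7285 and 8126, the muscle form Cox8b was untested at 5.7, 43.4 and 49.6, and the testis form Cox8c read 124.4, 106.1 and 88.7. The untested Cox7a1 and Cox8b thus went the opposite way from the tested dim isoforms, so the dim isoforms did not share a direction once the filter was lifted.

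Cox7b2, a testis form of subunit 7b, was the gene past the rule of size. It read 70.1 and 58.3 units in the controls (64.2 ± 8.34, SD, n = 2) and 19.7 in RetSat shRNA cells, 30.7% of the control mean. Its mean signal passed the filter of about 33.3 units only through the controls. The log2 differences were -1.43 and -1.20 (SE 0.502 in limma), and the controls differed by 0.23. Germ cell markers were low on all 3 arrays (summed signals of 43.7, 36.3 and 62.8 over 4 genes), under the filter for each gene. With an offset of 50 in place of 10.2 its mean log2 difference was -0.71 in place of -1.31.

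Among the other widely expressed subunits, Cox5a read 6506, 9311 and 10392, and Cox6c read 9116, 9723 and 10839. Ndufa4 read 7221, 7784 and 8162. These 3 were among the genes whose differences from empty vector 2 stayed within 0.16. Cox7c had only dim probe sets (the brighter at 96.8, 90 and 129.2), so its value was read near the floor.

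**Figure D3:**
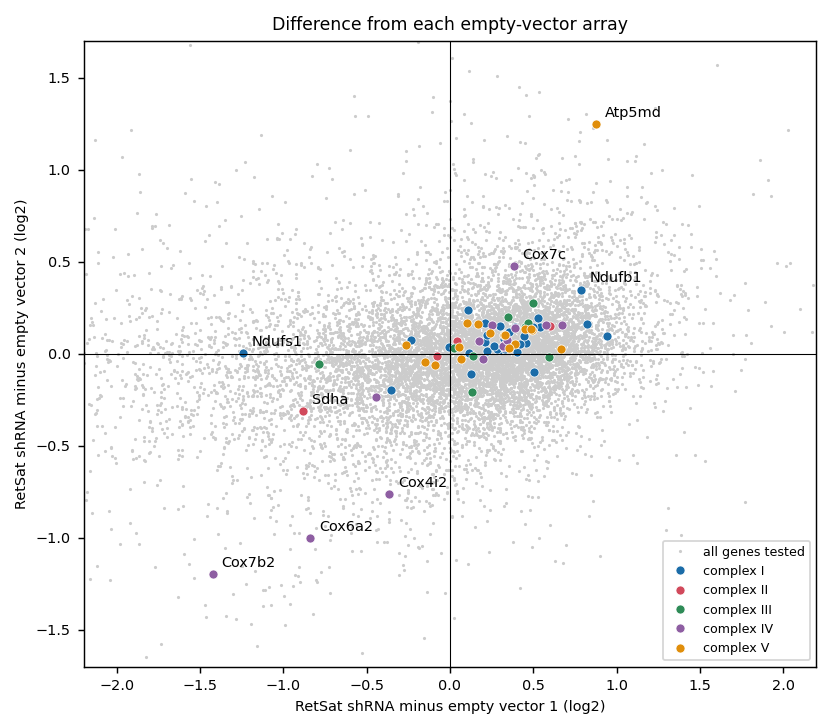
Each point is a tested gene, with its log2 difference from empty vector 1 on the horizontal and from empty vector 2 on the vertical axis; grey points are all genes, coloured points the subunit genes by complex, and 213 genes lie outside the axes. The subunit genes form a flat band to the right of zero, wide against empty vector 1 and narrow against empty vector 2, with Atp5md alone at the top right (0.88 and 1.25) and the dim isoforms Cox7b2, Cox6a2 and Cox4i2 at the lower left.

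Complex V couples the return of protons through its membrane ring to ATP synthesis in its F1 head. All 17 genes were tested; 13 lay above both arrays, 2 below and 2 between (7, 5 and 5 after quantile normalization), with medians of 0.32 and 0.10. The gene that stood out was Atp5md, also called DAPIT, a small membrane subunit known for a part in keeping ATP synthase assembled as dimers. It read 4807 and 3715 in the controls (4261 ± 773, SD, n = 2) and 8834 in RetSat shRNA cells, 207% of the control mean, and the shRNA array was far above both controls. The log2 difference was 0.88 against the first control array and 1.25 against the second, with a mean of 1.06 (SE 0.508, unadjusted p = 0.0624, adjusted p = 1 in limma).

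Atp5md had the highest difference from empty vector 2, and the highest smaller difference from the 2 controls, of the 1357 genes at or over the 95th percentile of signal. The next highest difference from empty vector 2 in that range was 0.78, and the next among bright subunit genes was 0.28. Its own controls differed by 0.37 in the opposite sense, with empty vector 1 above empty vector 2. After quantile normalization the differences were 0.66 and 1.16. A single probe set measured it, so no second one bears on the value. Atp5md lies at chr19:47083471-47090647 on the minus strand of GRCm38.p6.

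The other 4 membrane subunits also lay above both arrays, by less; with Atp5md, 3 of the 5 did after quantile normalization. Atp5mpl read 3415, 4361 and 4789. The other 3 (Atp5j2, Atp5k and Atp5l) were 0.03 to 0.17 above empty vector 2. All 3 genes for the proton-carrying c subunit, which encode the same mature protein, lay above both, and 2 of them did after quantile normalization. Atp5g1 read 4511, 5823 and 6355, and Atp5g2 read 6537, 8154 and 8936. Atp5g3 read 11927 and 11952 in the controls and 13385 in RetSat shRNA cells, with controls that coincided. On the deposited scaling the F1 head was nearer to the controls, with medians of 0.06 and 0.05 over 5 genes. Its catalytic Atp5b read 8162, 8709 and 8537, between the controls, while Atp5a1 read 6861, 6381 and 6191, below both by 0.04 log2. Atp5e, the epsilon subunit, read 2864, 3123 and 3378. After quantile normalization 1 of the 5 F1 genes lay above both, 1 between and 3 below. Atp5a1 and Atp5b were among those below. In the peripheral stalk 3 of 4 genes were above both (1 after quantile normalization), and Atp5o was below at 6046, 5932 and 5681. A second bright probe set of Atp5o read 1857, 2145 and 2571, above both controls by 0.47 and 0.26, so its direction depends on the probe set.

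Genes with several bright probe sets show how far a value depends on the probe set. There were 34 genes with at least 2 probe sets at or over the 95th percentile. For RetSat shRNA against empty vector 2, the probe sets of a gene spanned a median range of 0.10 log2, and at most 0.32, in Atp5o. For empty vector 2 against empty vector 1 they spanned 0.21, and at most 0.83. The wider range was between the controls in 21 of the 34 genes. Cox6c gave 0.09 and 0.92 between the controls from its 2 probe sets, but 0.16 from both for RetSat shRNA against empty vector 2. Ndufb6, an accessory subunit of complex I, gave 0.04 and 0.85 between the controls. The size of the gap to empty vector 1 therefore differed between probe sets of the same gene.

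Over all 146 member probe sets past the filter, 95 lay above both arrays, 22 below and 29 between. The shares over all probe sets past the filter were not computed, so these counts are not set against a background. For 6 genes the probe sets past the filter disagreed in direction by 0.5 log2 or more in the mean difference (Atp5a1, Ndufa12, Ndufa3, Ndufs4, Ndufs8 and Uqcrq). In each the probe set farthest from the brightest was dim, at 166.5 units or less. Bright probe sets of Ndufs8, Ndufa12 and Atp5a1 also differed from the brightest in the sign of the mean difference. Of the 6 probe sets of Ndufs8, 1 lay above both controls, 2 between and 3 below. The widest range in mean difference was 1.90, for Ndufs4, and the narrowest of the 6 genes was 0.58, for Ndufs8. Ndufs4, an accessory subunit whose brightest probe set read 1159, 931.6 and 982.7, had a probe set at 79.4, 78.1 and 19.8. Uqcrq had a probe set at 44, 78.7 and 27.2. On RetSat shRNA both dim probe sets were under the filter level of about 33.3 units and passed it only through their control signals. The filter thus favoured a low shRNA reading in them, and their discordance is not read as a result.

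**Figure D4:**
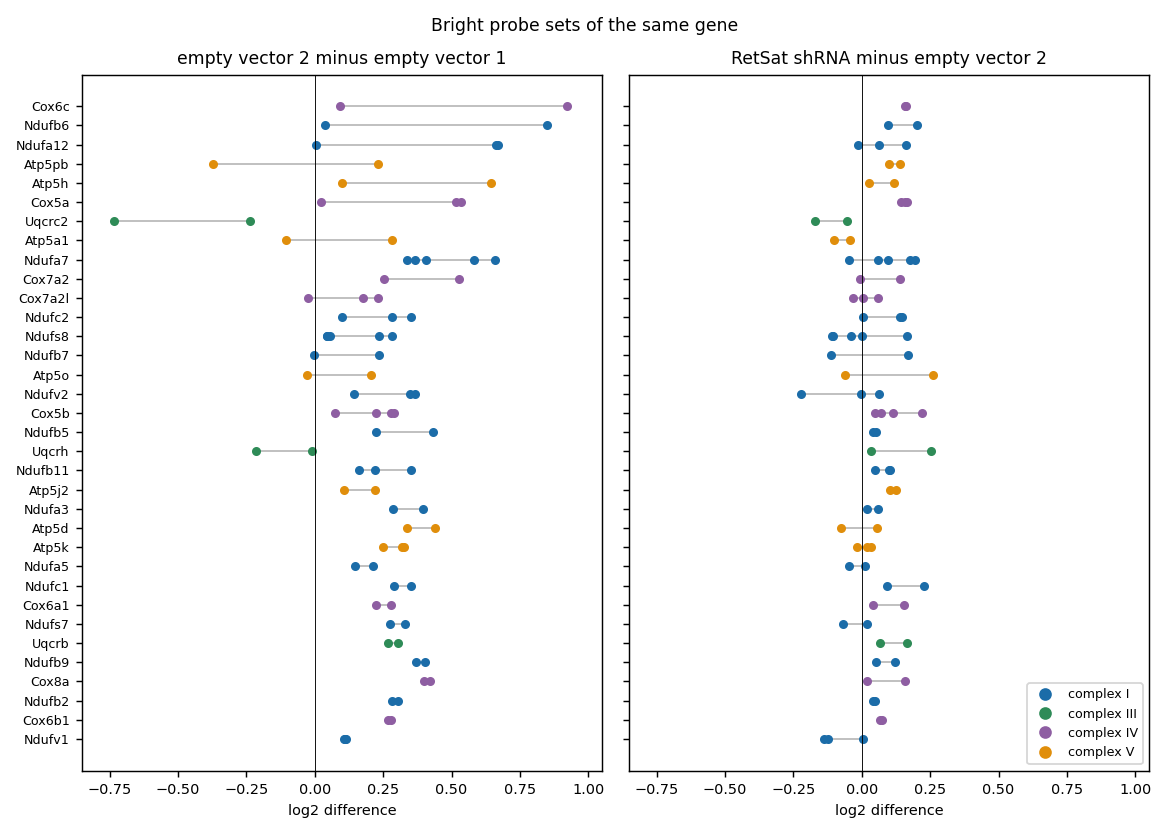
Rows are the 34 subunit genes with 2 or more bright probe sets, each point is a probe set coloured by complex, and the horizontal axis is the log2 difference of empty vector 2 from empty vector 1 (left) and of RetSat shRNA from empty vector 2 (right). Lines join probe sets of a gene; the upper rows spread by up to 0.83 on the left, while no row spreads by more than 0.32 on the right.

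Promoters are shown for 4 genes picked within their complexes, and complex IV, which held the lowest tested gene, Cox7b2, is not among them. Atp5md and Uqcr11 had the largest smaller difference above both controls in complexes V and III, and Sdha and Ndufa10 the largest below them in complexes II and I. Many subunit promoters are known targets of nuclear respiratory factor 1 (NRF1), of the ETS factor GABP and of YY1. Each sequence is the RefSeq window on GRCm38.p6 from 250 bases before to 50 after the gene's start, 5′ to 3′ on the gene's strand, with matches in capitals to the NRF1 motif (GCGC on each side of a pair made of any base and then T), CCGGAAG (ETS), AAGATGG (YY1) or TCAAGGTCA (the estrogen-related receptors, ERR) on either strand.
Atp5md, chr19:47090598-47090897, minus strand: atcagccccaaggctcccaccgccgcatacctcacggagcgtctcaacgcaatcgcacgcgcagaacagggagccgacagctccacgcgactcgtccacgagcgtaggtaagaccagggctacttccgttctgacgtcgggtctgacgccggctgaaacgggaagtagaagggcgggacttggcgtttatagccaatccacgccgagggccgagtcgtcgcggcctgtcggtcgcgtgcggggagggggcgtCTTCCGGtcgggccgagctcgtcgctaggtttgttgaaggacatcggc
Uqcr11, chr10:80406772-80407071, minus strand: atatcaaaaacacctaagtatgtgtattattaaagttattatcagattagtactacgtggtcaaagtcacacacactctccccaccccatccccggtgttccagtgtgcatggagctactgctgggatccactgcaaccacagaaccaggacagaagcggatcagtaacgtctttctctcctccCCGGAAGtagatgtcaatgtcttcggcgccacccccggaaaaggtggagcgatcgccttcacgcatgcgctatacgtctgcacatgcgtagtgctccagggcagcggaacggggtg
Sdha, chr13:74350191-74350490, minus strand: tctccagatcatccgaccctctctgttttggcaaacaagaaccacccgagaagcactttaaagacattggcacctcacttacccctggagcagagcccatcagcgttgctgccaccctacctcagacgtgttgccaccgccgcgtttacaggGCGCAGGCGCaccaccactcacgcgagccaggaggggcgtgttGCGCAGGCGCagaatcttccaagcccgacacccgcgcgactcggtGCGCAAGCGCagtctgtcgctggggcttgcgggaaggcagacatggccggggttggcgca
Ndufa10, chr1:92473709-92474008, minus strand: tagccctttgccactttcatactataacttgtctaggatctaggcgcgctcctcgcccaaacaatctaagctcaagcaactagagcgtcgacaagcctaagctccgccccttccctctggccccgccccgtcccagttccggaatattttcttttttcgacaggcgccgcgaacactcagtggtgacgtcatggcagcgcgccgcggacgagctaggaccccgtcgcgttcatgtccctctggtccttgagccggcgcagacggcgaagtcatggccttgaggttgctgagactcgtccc

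The Atp5md window held 1 ETS match at bases 3 to 9 of the transcript, and the Uqcr11 window 1 at -66 to -60. The Sdha window held 3 NRF1 matches, at -98, -55 and -10, and the Ndufa10 window none of these letters. Windows were found for 66 of the 81 genes, 71 in all. Of these, 16 held the NRF1 letters (22.5%, compared with 4.6% of 32851 windows of all genes), 17 the ETS letters (23.9% compared with 8.86%), 10 the YY1 letters (14.1% compared with 6.34%) and 2 the ERR letters (2.82% compared with 0.423%). In 4 windows matches overlapped. The member windows were richer in G and C, with a median of 58.3% against 52.7%. A match describes the letters only. Of the 55 windows of genes above both arrays, 11 held the NRF1 letters and 14 the ETS letters, and of the 6 windows of genes below both, 3 and 1 did. These counts include untested genes, Ndufb4, Cox7a1 and Cox8b above and Cox6b2 below. The 3 NRF1 windows below were those of Atp5o, Sdha and Sdhd, whose positions depended on the probe set.

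Other mitochondrial genes were read from lists drawn up by symbol. In limma none of them passed an adjusted p of 0.05 (0 of each list, where 0% of all genes tested did). Of all genes tested 34.4% lay above both empty-vector arrays and 25.4% below both. Positions of the listed genes were not recounted after quantile normalization. Assembly factors, which build the complexes, had 25 of 50 tested genes above both arrays and 6 below, with medians of 0.28 and 0.11. Sdhaf3, an assembly factor of complex II, read 457.9, 489.7 and 691.1, and Ndufaf3 of complex I read 114.6, 113.3 and 152.6, while Atpaf1, which helps form the F1 head, was below at 543.4, 527.5 and 392.7. Genes named like relatives of the subunits but outside the symbol rule had 6 of 8 above both, with Higd2a at 3075, 4128 and 4584. The median of the mean log2 signal of these relatives was 11.81. At a mean log2 signal of 11 to 12, 50.6% of all genes lay above both. Mitochondrial ribosomal proteins had 34 of 76 above both and 9 below, with medians of 0.22 and 0.03; Mrpl38 read 695.4, 705.1 and 941.6.

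For the remaining lists of more than 1 gene the share above both ran from 20.8% to 40%, beside 34.4% of all genes tested. Differences between lists were not tested. Electron carriers and coenzyme Q genes had 7 of 18 above both and 3 below; Coq9, of coenzyme Q synthesis, read 472.2, 488.2 and 655.8. Citrate cycle and pyruvate dehydrogenase genes had 6 of 24 above and 5 below. Pdk1, a kinase that restrains pyruvate dehydrogenase, read 726.2, 872.1 and 1067, and fumarase Fh1 read 2689.9, 971.5 and 798.7, with most of its gap between the controls. Regulators of mitochondrial transcription had 5 of 24 above and 6 below. Lrpprc, which stabilises mitochondrial mRNA, read 969.9, 286.2 and 215.2, again with most of its gap between the controls. Gabpb2, a GABP subunit, read 352.9, 257.5 and 174.8. Carriers and channels had 4 of 10 above and 2 below, with the dim Ucp3 at 54.5, 42.6 and 15.2. On RetSat shRNA Ucp3 was under the filter level of about 33.3 units and passed it only through its control signals. Its position below both was thus favoured by the filter and is not read as a result. The 1 mitochondrially encoded gene listed, ND5 of complex I, read 19506, 11361 and 14722, between the controls.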

How the data were processed

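The files hold deposited intensities, linear and never negative, of 45101 probe sets on each of 3 arrays (2 empty vector, 1 RetSat shRNA), grouped by sample title. Per the labels' protocols, RNA of the control arrays was isolated with Trizol LS, and all RNA was labelled with biotin. For the scanner, software and summarisation, the step was not given in the sources used here. The 2% trimmed mean of the deposited intensities was 250.002 on each array, so they had been scaled before deposit. The number of arrays limits the precision. No label ties the control arrays to separate cultures, and p-values therefore reflect the spread of these arrays alone, which may be technical.

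Probe sets with 1 symbol in the platform annotation were kept (932 had several, 9211 none listed). Of those with several symbols, 9 include a matching subunit and were left out. Before log2, 10.2 was added, the 25th percentile of the deposited intensities. Genes were fitted in limma 3.58.1 (R 4.3.3; lmFit and eBayes, two-sided, Benjamini-Hochberg over 10844 genes); the single RetSat shRNA array was taken to have the controls' spread. An exact test of 1 against 2 arrays cannot give a p below 0.333. Alternatives changed the offset, filter, scaling, probe set choice and variance prior, or left out a control array.

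Genes named are Retsat, up to 6 per complex by the smaller of the differences from the 2 control arrays, members 2-fold from empty vector 2, fixed paralog groups, complex II, genes with discordant probe sets, and up to 3 per other list. Ndufs1, Ndufv1, Ndufb6, Cox6c, Ndufa4, Cyc1, Uqcrfs1, Uqcrc1, Atp5b, Atp5j2, Atp5k, Atp5l and Atp5o were named after their values were seen. The members and lists were chosen with earlier results of these data known.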

Additional observations from a re-analysis of the deposited data

How the results depend on the processing

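The median difference of the subunit genes kept its sign against the mean of the controls in every alternative run, at 0.05 (quantile normalization) to 0.21 (arrays centred on the medians of tested genes), and 0.06 to 0.32 with a control array left out. Against empty vector 1 it was 0.11 after quantile normalization. The count above both controls was 35 after quantile normalization, and all 35 were among the 56; the count below was 17 there, 6 with a 75th percentile filter, 4 with a 95th percentile filter (added after seeing the data), and 14 to 17 with a control left out, 17 being without empty vector 1. No subunit gene passed limma in any alternative; over all genes 5 passed with a robust variance prior and 1 with centred arrays. Genes 2-fold from both controls numbered 110 (22 higher, 88 lower) with an offset of 1, 7 (1 and 6) with 50, 800 (386 and 414) with no filter, 1 (0 and 1) with the 75th and 0 (0 and 0) with the 95th percentile filter, 25 higher after quantile normalization, and 30 lower with probe sets averaged. With 1 control left out they numbered 188 to 1478 (78 to 374 higher, 110 to 1104 lower). Of 41 named genes, 31 kept their sign in all 10 settings, and 11 of 410 values changed it. No paired analysis was possible because the groups have a single number in common, 2, and the labels do not say what it marks. Causes of these changes were not tested. Signal near the floor limits the dim isoforms.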

Other observations

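Gene span was looked at after the values were seen. Among the 66 bright subunit genes, the 22 with the shortest genomic span (1.15 to 4.87 kb) had a median difference of 0.28 between empty vector 2 and empty vector 1, and 0 of them were lower on empty vector 2. The 22 with the longest span (9.03 to 34.3 kb) had a median of 0.23, and 6 were lower. Across all 10800 tested genes with a span, Spearman's rho of span with that difference was -0.25, and across the 77 subunit genes it was -0.18; these describe genes on the same arrays, which are not independent, and spans are those of the gene, not of its mRNA.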
